A study of Mus musculus with 2 samples.

Results

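The transcripts described here are 41 genes of G2 and M phase, the part of the cell cycle in which a cell that has copied its DNA prepares for division and divides. They were chosen by symbol for their known roles in mitosis and not by a rule on their values. Earlier results of these data were known when they were chosen, and all 41 are among the 32285 genes counted. They were measured in CD8+ T cells sorted from tumours of MC38, a mouse colon carcinoma line. Cells entered when they had at least 500 detected genes, a mitochondrial share of UMIs (unique molecular identifiers, 1 per captured transcript) under 10%, and at least 1 UMI of a CD3 gene (Cd3d, Cd3e or Cd3g) and of a CD8 gene (Cd8a or Cd8b1). The study set out to learn what natural killer (NK) cells do to CD8+ T cell differentiation in a tumour.

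Both groups were of WT genotype and carried MC38 tumours taken on day 9 after implantation. The control group is labelled PBS for treatment, its library name holds the letters Iso, and nothing in the labels says whether an isotype antibody was given. The other group received the a-NK1.1 antibody, which depletes NK cells. Each group is 1 library, and how many mice it holds is not given by the labels. No difference between the groups could therefore be set against a spread between animals, no test was run, and every interval below covers counting error only. Where values come in pairs, the control value stands first and the NK-depleted value follows.

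The libraries held 7866 control and 10111 NK-depleted barcodes with 108106687 and 128853437 UMIs in total. The gate kept 6901 and 8164 cells, with medians of 11444 and 12289.5 UMIs and median mitochondrial shares of 2.27% and 2.80%. Cd3d stood at 1263 and 1151 CPM (UMIs scaled to 1000000 per library) in the gated cells, Cd8a at 877 and 695 CPM, and Cd4 at 0.432 and 0.207 CPM. Summed over their lists, plasmacytoid dendritic cell markers stood at 802 and 519 CPM, other dendritic cell markers at 171 and 112 CPM, NK cell markers at 182 and 201 CPM and gamma delta T cell markers at 29.0 and 46.5 CPM. The libraries shared 391 barcode sequences, of which 151 control and 61 NK-depleted barcodes passed the gate, so the leading comparisons of the libraries are also given without them. No gene of the dendritic cell or NK cell lists was at 0, and the part of such cells in the differences below was not tested.

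Entry into mitosis is driven by the kinase Cdk1 bound to cyclins A and B. Chromosomes condense and attach through kinetochores to the spindle, a checkpoint holds the cell until all are attached, and the anaphase-promoting complex then destroys cyclin B and separase's inhibitor so that the chromosomes part and the cell cleaves. In CD8 T cells, division follows antigen recognition, and in tumours it is best known for cells that carry the factor Tcf7 or for their more differentiated progeny that have gained inhibitory receptors such as Havcr2.

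Many genes of this group are known to share promoter elements: the cell cycle genes homology region (CHR), searched here as TTTGAA on either strand, and CCAAT boxes, searched as CCAAT on either strand. The 4 promoters below are shown because they belong to genes whose values are central in what follows: the kinase, a B-type cyclin, the activator of cyclin destruction, and the member with the second largest ratio between the libraries. Each run is the 250 bases before the RefSeq start of the gene (build GRCm38.p6), read 5′ to 3′ on the gene's strand, with matches to either motif on either strand in capitals. Cdk1 lies at chr10:69352913-69353162, Ccnb2 at chr9:70421555-70421804, Cdc20 at chr4:118437344-118437593 and Top2a at chr11:99024190-99024439, all on the minus strand.
Cdk1: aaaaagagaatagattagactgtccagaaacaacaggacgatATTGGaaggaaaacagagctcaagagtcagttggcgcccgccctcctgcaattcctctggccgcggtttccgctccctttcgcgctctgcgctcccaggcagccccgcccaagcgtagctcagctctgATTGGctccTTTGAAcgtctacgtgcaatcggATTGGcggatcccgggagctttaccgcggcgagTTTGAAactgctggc
Ccnb2: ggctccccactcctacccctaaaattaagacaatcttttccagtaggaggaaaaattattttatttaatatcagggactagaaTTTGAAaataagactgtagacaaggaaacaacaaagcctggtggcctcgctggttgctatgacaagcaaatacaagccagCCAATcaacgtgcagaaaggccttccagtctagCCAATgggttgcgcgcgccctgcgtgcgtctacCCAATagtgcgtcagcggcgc
Cdc20: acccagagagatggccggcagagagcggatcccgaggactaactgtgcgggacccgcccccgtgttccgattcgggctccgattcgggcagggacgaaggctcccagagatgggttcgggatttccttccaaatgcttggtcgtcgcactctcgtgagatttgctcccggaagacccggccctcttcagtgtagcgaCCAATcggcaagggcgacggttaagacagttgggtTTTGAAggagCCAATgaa
Top2a: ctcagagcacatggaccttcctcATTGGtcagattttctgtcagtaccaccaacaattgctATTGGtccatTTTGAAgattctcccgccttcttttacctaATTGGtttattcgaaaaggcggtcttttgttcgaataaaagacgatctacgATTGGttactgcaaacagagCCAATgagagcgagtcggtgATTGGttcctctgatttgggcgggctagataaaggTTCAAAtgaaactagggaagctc
In Cdk1 the matches to TTTGAA begin 71 and 15 bases before the start, and in Cdc20 the match begins 18 bases before it. Top2a has the motif on the opposite strand 23 bases before its start and a further match 179 bases before it. In Ccnb2 the match shown begins 167 bases before the start, and a second match, at base 5 from the start, lies outside the bases shown.

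A promoter was found in the RefSeq table for 36 of the 41 members. Over windows from 250 bases before to 50 after the start, 26 of the 36 (72.2%) held TTTGAA on either strand, against 20.2% of all 27025 genes with a promoter. CCAAT was in 27 of the 36 (75.0%), against 41.1% of all genes, and both motifs were in 21 (58.3%), against 7.97%. Counted once where 2 starts of a gene share them, 34 matches to TTTGAA lay in the members' windows, of which 27 were within 100 bases of the nearer start and belonged to 23 members. Among 30 genes of the S phase list with a promoter, 4 (13.3%) held TTTGAA and 63.3% held CCAAT. A match says only that these letters are in the window, and the data hold no measure of a factor bound there.

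A mitotic cell was taken as one with a UMI of at least 10 of the 41 members after each cell had been thinned at random to 5000 UMIs. The name stands for this rule only. Of the cells so named, 58.2% of control and 64.1% of NK-depleted ones also had UMIs of at least 10 S phase genes. The shares below are thus shares of this class and not of cells in mitosis, whose number was not measured. Thinning left 6381 control and 7523 NK-depleted cells, since 520 and 641 cells had fewer UMIs. Mitotic cells were 785 of the control cells, 12.3% (exact Clopper-Pearson 95% interval 11.5 to 13.1), and 1418 of the NK-depleted cells, 18.8% (18.0 to 19.8). The NK-depleted share was higher by 6.55 percentage points, at 1.53 times the control share (1.40 to 1.67). Without thinning the shares were 16.8% and 26.1%. Without the barcodes that the libraries shared, they were 11.8% and 18.7%, an alternative chosen after seeing the data.

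The members appeared together in few cells and were scarce in most. No member was seen in 22.4% of control and 14.1% of NK-depleted cells, and 1 or 2 members in 48.8% and 42.5%. Mitotic cells had medians of 19 and 18 members, with at most 38 and 37, and they held 76.9% and 78.5% of all member UMIs. Between these ends lay 1055 control and 1846 NK-depleted cells with 3 to 9 members. The control library had fewer cells with 8 or 9 members (72) than with 10 or 11 (90), while the NK-depleted library had 185 and 179, so the threshold lies in a dip in the control library only and marks a range rather than a cell type.

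**Figure D1:**
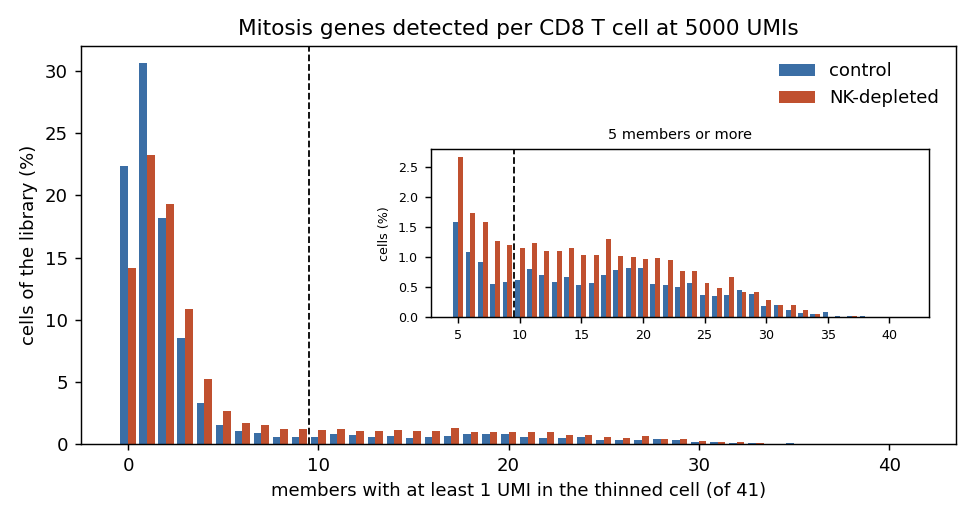
Share of thinned CD8 T cells (vertical axis, % of the library) by the number of the 41 mitosis genes with at least 1 UMI (horizontal axis), in the control (blue) and NK-depleted (red) library, with the range from 5 members enlarged. The dashed line marks 10 members, beyond which lie 12.3% of control and 18.8% of NK-depleted cells.

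The same measure was read in cells thought to divide little. Naive-like cells, those with UMIs of at least 3 of 6 naive or central memory genes, were mitotic in 14 of 767 control cells (1.83%) and 40 of 1090 NK-depleted cells (3.67%). These 14 and 40 cells had medians of 13.5 and 16.5 members. Whether they were dividing was not tested, so the shares are not a background of false calls. Plasmacytoid dendritic cells outside the gate, a cell type that largely does not divide, were mitotic in 0 of 17 control and 0 of 11 NK-depleted barcodes. The shares that 3 counts allow are 17.6% and 27.3%, and the upper Clopper-Pearson limits were 19.5% and 28.5%. The summed member level of these dendritic cells was 1.88 and 1.45 UMIs per 10000, against 93.0 and 87.1 in mitotic CD8 T cells. Mitotic cells were deeper before thinning, with medians of 24388 and 22213 UMIs against 11254 and 11771 in the other cells. Of 11 marker lists of other cell types and states, all but the erythroid list were lower in mitotic than in other cells in both libraries, and the erythroid genes stood at 0.510 CPM of thinned UMIs or below. Doublets were not removed, and their part in the mitotic share was not tested. Without the 8% of cells with most UMIs in each library, which removes deep cells of any kind, the ratio of mitotic shares was 1.69.

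Over all gated cells, the members summed to 2173 and 2839 CPM, a ratio of 1.31. NK-depleted cells had 31 of the 41 members at least 25% higher and 0 at least 20% lower, limits called the fold below. Of all 7624 genes that reached 10 CPM in a library, 6.27% were higher and 11.9% were lower by these limits, with a median log2 ratio of -0.06. The members' median log2 ratio was 0.41, and 40 of the 41 reached 10 CPM. Without the shared barcodes 32 members were higher. With TMM factors 37 members were higher and 0 lower, and over all genes the higher share of those past the fold went from 34.5% to 60.4% (63.5% with median-of-ratios factors), with the all-gene median log2 ratio moving by 0.09 with TMM factors and by 0.10 with median-of-ratios factors.

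Among cyclins and Cdk1 with their direct regulators, 5 of 8 members were past the fold. Cks2, a small subunit that binds Cdk1, stood at 92.5 and 105 CPM, a ratio of 1.13 (1.11 to 1.16). Cdk1 itself stood at 47.5 and 63.3 CPM, a ratio of 1.33 (1.29 to 1.38). The cyclin genes were all higher: Ccna2 by a ratio of 1.33, Ccnb1 by 1.38 and Ccnb2 by 1.27. The phosphatases that remove the inhibitory phosphates from Cdk1 stood at the opposite ends of the group. Cdc25b stood at 25.4 and 27.4 CPM, a ratio of 1.08 (1.02 to 1.13), while Cdc25c stood at 6.40 and 8.90 CPM, a ratio of 1.39 (1.26 to 1.53), and is the member below the level of 10 CPM needed to be counted. Cdkn3, a phosphatase that acts on the activating site of Cdks, had a ratio of 1.27.

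Of the mitotic kinases and the survivin subunit of the chromosomal passenger complex, 4 of 5 were past the fold. Plk1, the kinase that acts from mitotic entry to cleavage, went from 21.7 to 31.7 CPM, a ratio of 1.46 (1.39 to 1.54). Birc5, which encodes survivin, the partner of Aurora B, stood at 102 and 135 CPM, a ratio of 1.33 (1.29 to 1.36). Nek2, a centrosome kinase, stood at 13.0 and 15.3 CPM and had the smallest ratio, 1.18 (1.101 to 1.27). The Aurora kinase genes Aurka and Aurkb lay between them, at ratios of 1.34 and 1.27.

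The spindle checkpoint held the member with the largest ratio of all 41. Ttk, the kinase Mps1 that starts checkpoint signalling at unattached kinetochores, stood at 7.97 and 12.8 CPM, a ratio of 1.605 (1.48 to 1.75). Mad2l1, whose protein sequesters Cdc20, stood at 29.6 and 35.5 CPM, a ratio of 1.198 (1.14 to 1.255), and was the 1 of 4 below the fold. Bub1 and Bub1b each had a ratio of 1.33. Both partners of the anaphase-promoting complex were past the fold: its activator Cdc20 stood at 22.9 and 31.1 CPM (ratio 1.36, 1.29 to 1.43), and its ubiquitin-conjugating enzyme Ube2c at 107 and 135 CPM (ratio 1.26, 1.23 to 1.29).

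At the kinetochore, 4 of 5 members were past the fold and Cenpa went the other way. Cenpa, the histone H3 variant that marks centromeres, stood at 175 and 158 CPM, a ratio of 0.903 (0.885 to 0.922). It was the only member with a ratio below 1, and it stayed below 1 in each of the 11 alternatives, both other scalings among them, at log2 ratios from -0.15 to -0.05. Alternatives that change only the minimum level or the fold cannot alter a ratio, and they repeat the reported value. Of its UMIs 49.4% and 42.3% lay outside mitotic cells, and it was seen in 25.5% and 22.4% of non-mitotic cells. That did not set Cenpa apart from members with ratios above 1. Outside mitotic cells lay 49.4% and 45.3% of Cks2 UMIs and 49.7% and 41.4% of Cdc25b UMIs. Cenpf, a large outer kinetochore protein of G2 and M phase, stood at 108 and 149 CPM, a ratio of 1.38 (1.34 to 1.41). Cenpe, the kinesin that moves chromosomes to the spindle equator, and Ndc80 and Nuf2, subunits of the complex that grips microtubules, had ratios from 1.26 to 1.36.

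All 8 spindle genes were past the fold. Nusap1, which bundles microtubules near chromosomes, had the largest ratio of the group, at 70.4 and 103 CPM (1.46, 1.42 to 1.502). Kif20b, a kinesin, had the smallest, at 49.3 and 62.8 CPM (1.27, 1.23 to 1.32). Kif11, which pushes the spindle poles apart, Kif2c, which takes microtubules apart, Tpx2, which activates Aurora A, and the spindle proteins Hmmr, Ckap2 and Ckap2l lay between them. Of the 7 cytokinesis genes, which act in the cleavage furrow and midbody, 3 were past the fold. Racgap1, a subunit of centralspindlin, stood at 61.7 and 73.1 CPM, a ratio of 1.19 (1.15 to 1.22), and Ect2, the exchange factor it recruits, had the smallest ratio, 1.18 (1.11 to 1.27). Kif20a, a kinesin of the central spindle, had the largest, at 12.7 and 17.9 CPM (1.42, 1.32 to 1.52). The furrow protein Anln (1.32) and the kinesin Kif4 (1.31) were past the fold too, while Kif23, the kinesin of centralspindlin (1.204), and the midbody protein Cep55 (1.23) were below it.

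Both genes of chromosome structure were past the fold. Top2a, the topoisomerase that untangles sister chromatids, stood at 279 and 435 CPM, a ratio of 1.56 (1.54 to 1.58). Mki67, which encodes the Ki-67 protein that coats mitotic chromosomes, stood at 269 and 372 CPM, a ratio of 1.38 (1.36 to 1.40). Cells with a UMI of either gene were 35.3% of control and 49.9% of NK-depleted thinned cells. In naive-like cells that share was 14.0% and 27.2%. A UMI of either gene asks for less than 10 members together by definition, and the naive-like shares do not bear on it.

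**Figure D2:**
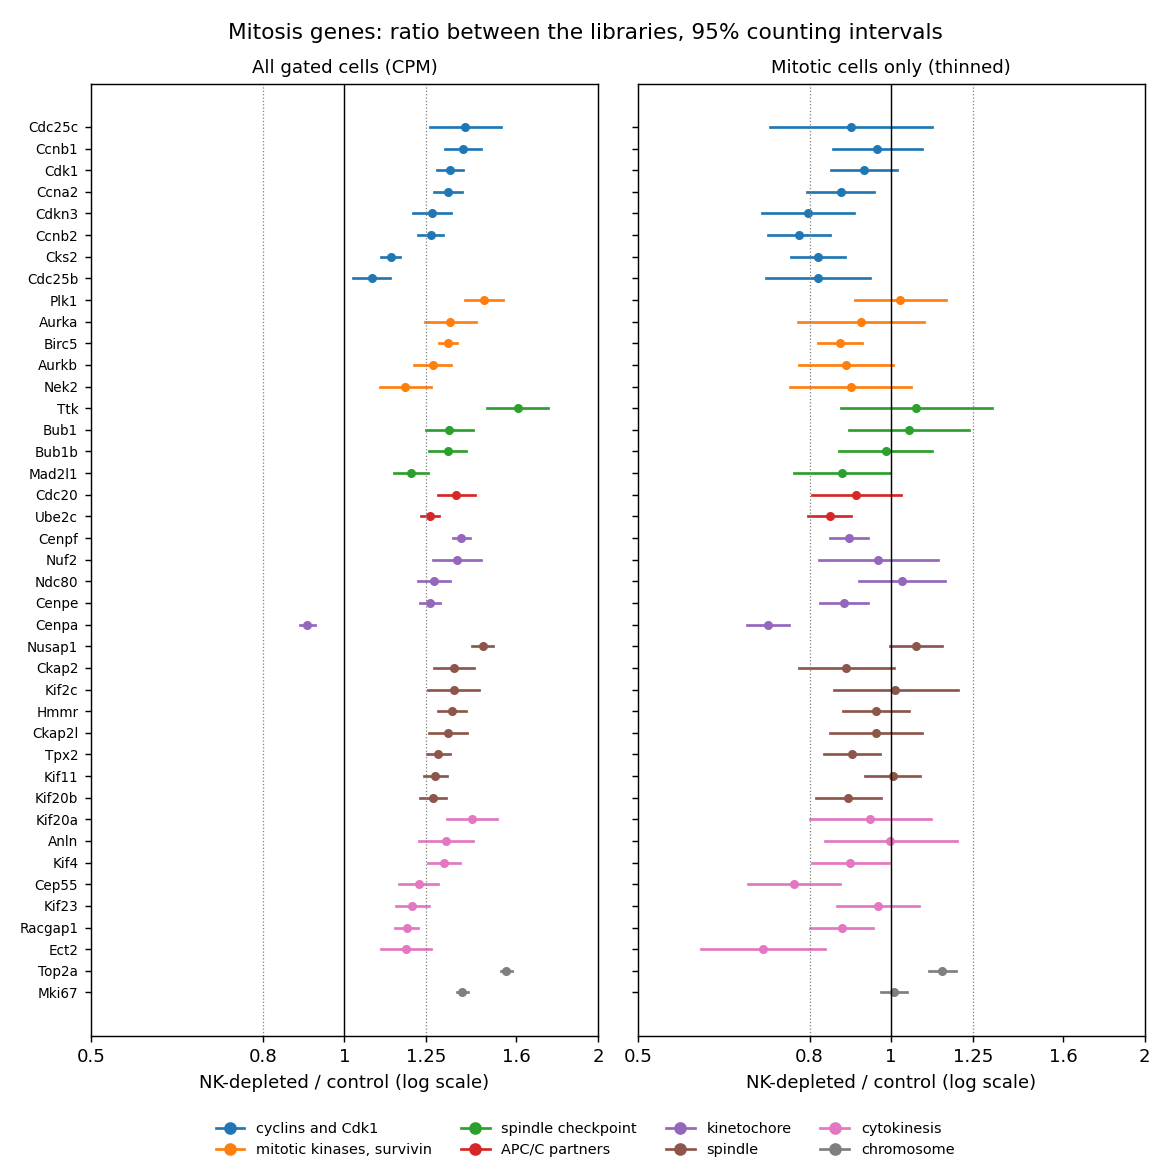
Ratio of NK-depleted to control level (horizontal axis, log scale) for each of the 41 members, coloured by role, over all gated cells (left, CPM) and within mitotic cells (right, thinned UMIs). Points are ratios and bars exact 95% counting intervals; in all cells 40 members lie above 1 and Cenpa below it, while in mitotic cells 32 lie below 1.

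The gap between the libraries was not seen again when mitotic cells were set against mitotic cells. For each member, mitotic cells were found from the other 40 members, so that a gene did not itself choose the cells it was measured in. The members were correlated across cells, so cells chosen by the other 40 were already partly matched in the level of each member. The part of this selection in the ratios was not tested. Within these cells 0 of 41 members were at least 25% higher after NK depletion, against 7.47% of all genes, and 5 were at least 20% lower, against 15% of all genes. The median ratio of the members was 0.898, that of all genes 0.961, and 32 of 41 members lay below 1. The median UMI depth before thinning was lower in the mitotic cells of the NK-depleted library (22213 against 24388), and its part in these ratios was not tested.

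Top2a stood apart among them. It had 11.4 UMIs per 10000 in control and 13.1 in NK-depleted mitotic cells, a ratio of 1.15 (1.11 to 1.19), the largest of the 41. Mki67 was level, at 12.2 and 12.3 UMIs per 10000 (ratio 1.01, 0.972 to 1.04). The members past the fold downwards were Ect2 (0.637 and 0.448 UMIs per 10000, ratio 0.704), Cenpa (5.63 and 4.02, ratio 0.714), Cep55 (ratio 0.767), Ccnb2 (2.44 and 1.90, ratio 0.778) and Cdkn3 (ratio 0.796). As a share of 41 this is below the 15% of all genes past that limit, and nothing is read from the count.

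In non-mitotic cells, 17 of the 41 members reached 10 CPM of thinned UMIs in at least 1 library. Of these 17, 11 were at least 25% higher after NK depletion, against 6.1% of all genes of that level. Cdk1, Ccnb2, Cenpf, Kif11, Tpx2 and Nusap1 are among the 11 and reached the level in the NK-depleted library only. They entered through the library where they were higher, so nothing is read from the count. The summed level of all 41 members was 3.92 UMIs per 10000 in control and 5.54 in NK-depleted non-mitotic cells. Birc5, which reached 10 CPM in both libraries, went from 0.111 to 0.250 UMIs per 10000, a ratio of 2.25 (1.97 to 2.58). Ccna2, which was below 10 CPM in both and so not among the 17, went from 0.0321 to 0.0839 (2.61, 2.05 to 3.36). Cenpa was again lower, at 0.740 and 0.661 UMIs per 10000 (0.893, 0.840 to 0.9497). In naive-like non-mitotic cells the summed level was 2.86 and 3.48, closer together. These non-mitotic cells include those with 3 to 9 members, which were more numerous in the NK-depleted library.

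The mitotic share differed by the status of each cell for 5 genes of T cell state. A cell was positive with at least 1 UMI of the gene at 5000 UMIs. Positive cells were more often mitotic for Gzmc and Havcr2 and less often for Tcf7 and Ifit3 in both libraries, beyond the counting intervals, while for Pdcd1 the intervals overlapped in the control library. Within every one of these 10 classes, 5 positive and 5 negative, the NK-depleted library had the higher mitotic share, though for Gzmc-positive cells the intervals overlapped.

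Tcf7, the factor of naive and stem-like T cells, marked cells that were rarely mitotic. In the control library 4.58% (3.50 to 5.89) of Tcf7-positive cells were mitotic, against 14.2% (13.3 to 15.2) of negative cells. In the NK-depleted library the shares were 7.85% (6.57 to 9.29) and 21.7% (20.7 to 22.8). In the control library 33 members reached 10 CPM of thinned UMIs in positive or negative cells, the level that all gene counts by status need, and 32 of them were at least 20% lower in Tcf7-positive cells, against 22.6% of all genes. In the NK-depleted library the count was 38 of 40, against 22.9%. Birc5 had ratios of positive to negative cells of 0.285 and 0.434 there, while Cdc25b had 1.14 and 0.913. The share was lower with more Tcf7 UMIs, and at 4 to 7 UMIs 0 of 129 control cells and 4 of 106 NK-depleted cells were mitotic. Naive-like cells, of which 72.1% and 65.7% were Tcf7-positive, are among these cells.

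Ifit3, an interferon-induced gene, was at 495 and 246 CPM, and marked cells that were less often mitotic in both. It was positive in 66.7% and 48.3% of all cells and in 56.2% and 51.0% of naive-like cells. Mitotic cells were 9.47% (8.60 to 10.4) of Ifit3-positive and 18.0% (16.4 to 19.7) of negative control cells, and 13.6% (12.5 to 14.7) and 23.8% (22.4 to 25.1) of NK-depleted cells. The share declined at every step of Ifit3 UMIs, from 18.0% at 0 through 15.1% at 1, 10.7% at 2 to 3 and 8.08% at 4 to 7 to 3.10% at 8 or more in the control library. In the NK-depleted library the steps were 23.8%, 18.2%, 14.1%, 8.53% and 3.91%, so from 1 UMI upwards the intervals of the libraries overlapped at each step. In Ifit3-positive cells 35 of the 36 members at 10 CPM were at least 20% lower in the control library, against 14% of all genes, and 38 of 40 in the NK-depleted library, against 11.6%.

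Gzmc, a granzyme of strongly activated killer cells, was the status gene that differed most between the libraries, at 101 and 426 CPM. Gzmc-positive cells were 8.56% of control and 30.9% of NK-depleted cells. Of the positive cells 27.8% (24.1 to 31.8) were mitotic in the control and 29.2% (27.3 to 31.1) in the NK-depleted library, with overlapping intervals. Of the negative cells 10.8% (10.1 to 11.7) and 14.2% (13.3 to 15.2) were mitotic. The highest step was 4 to 7 Gzmc UMIs, with 39.0% (28.05 to 50.8) and 36.8% (31.7 to 42.0). In Gzmc-positive cells 39 of the 40 members at 10 CPM were at least 25% higher in the control library, against 16.7% of all genes, and 38 of 40 in the NK-depleted library, against 12.7%. Some of them, such as Nek2 and Bub1 in the control library, reached 10 CPM in positive cells only. With no level set, 39 of the 41 members were at least 25% higher in each library. Cdk1 had ratios of 2.83 and 1.76.

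Depth before thinning moved with the status of all 5 genes, and the deeper class was the one with the higher mitotic share in each. Gzmc-positive cells had medians of 21207 and 16665 UMIs, against 11757 and 11933 in negative cells. Havcr2-positive cells had medians of 16769 and 15192.5 UMIs, against 10839.5 and 12250. Pdcd1-positive cells had 13593 and 14546, against 11180 and 12099.5. For the other two genes the positive cells were the shallower ones, with 10830 and 10379 UMIs against 12577 and 13905 for Tcf7, and 10985 and 11869 against 14944.5 and 14392 for Ifit3. The part of this depth in the mitotic shares was not tested. A UMI of Gzmc was also seen in 2.22% of control and 13.5% of NK-depleted naive-like cells, and in 0 of 17 and 2 of 11 plasmacytoid dendritic cells. The part of free RNA in the positive class was not tested.

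Havcr2, which encodes the inhibitory receptor TIM-3, also marked more mitotic cells. It was positive in 27.1% and 33.2% of cells, and in 7.17% and 7.52% of naive-like cells. The shares were 18.9% (17.0 to 20.8) of Havcr2-positive and 9.87% (9.02 to 10.8) of negative control cells, and 24.0% (22.4 to 25.7) and 16.3% (15.3 to 17.3) of NK-depleted cells. The difference of 8.99 points in the control library ran from 4.53 with status set by 2 UMIs to 22.5 without thinning, and that of 7.73 points after NK depletion from 2.86 to 24.7 at these same settings. In positive cells 34 of the 37 members at 10 CPM were at least 25% higher in the control library, against 14% of all genes, and 27 of 40 in the NK-depleted library, against 16.7%. The share was highest at 1 Havcr2 UMI, 21.4% and 26.7%, and was 9.48% and 20.1% at 4 to 7 UMIs. Cenpa was among the members with a large ratio of positive to negative cells, 1.84 and 1.58, while Cdc25b stood at 0.998 and 1.13.

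Pdcd1, which encodes PD-1, separated the cells least. It was positive in 50.4% and 43.9% of cells, and in 15.6% and 14.9% of naive-like cells. Mitotic cells were 12.8% (11.7 to 14.0) of positive and 11.8% (10.7 to 13.0) of negative control cells, and 21.6% (20.2 to 23.0) and 16.7% (15.6 to 17.9) of NK-depleted cells. In positive cells 0 of the 32 members at 10 CPM were at least 25% higher in the control library, against 6.44% of all genes, and 21 of 40 in the NK-depleted library, against 13.6%. The NK-depleted difference of 4.88 points was -0.02 points with cells thinned to 3000 UMIs and 21.7 without thinning. The control difference of 1.03 points was below 0 under 3 of 11 alternatives, at -0.47 with cells thinned to 3000 UMIs, -0.47 without the 8% of cells with most UMIs and -1.49 with status set by 2 UMIs.

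**Figure D3:**
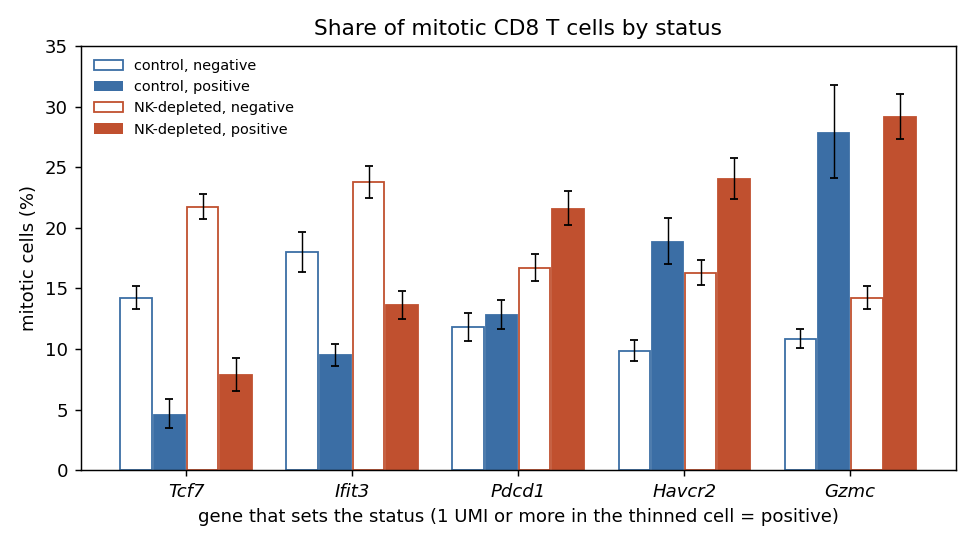
Mitotic cells (vertical axis, % of cells of the class) among cells negative (open bars) and positive (filled bars) for each status gene, in the control (blue) and NK-depleted (red) library, with exact 95% counting intervals. Tcf7- and Ifit3-positive cells lie below their negative counterparts and Havcr2- and Gzmc-positive cells above them in both libraries.

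**Figure D4:**
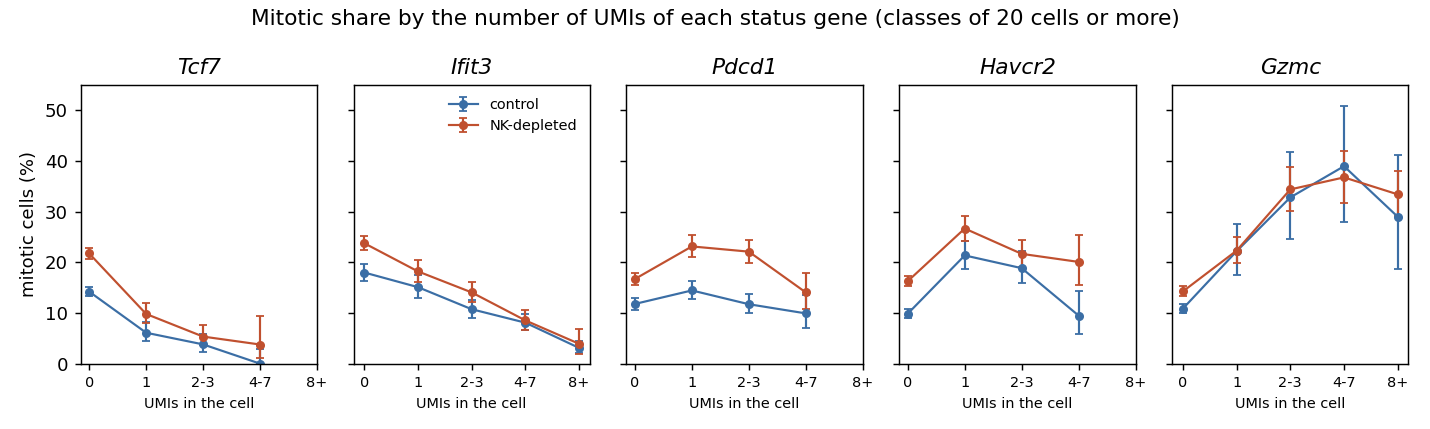
Mitotic share (vertical axis, %) against the number of UMIs of the status gene in the thinned cell (horizontal axis, classes of at least 20 cells), per library, with exact 95% counting intervals. The share declines at each step for Ifit3, from 18.0% to 3.10% in the control and 23.8% to 3.91% in the NK-depleted library, and peaks at 1 UMI for Havcr2 and Pdcd1.

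Tcf7 and Havcr2 together ordered the cells alike in both libraries. Tcf7-negative Havcr2-positive cells had the highest share, 19.3% (17.4 to 21.3) in the control and 24.6% (22.9 to 26.5) in the NK-depleted library. Tcf7-negative Havcr2-negative cells had 11.8% and 19.9%, and Tcf7-positive Havcr2-negative cells the lowest share, 4.01% (2.96 to 5.30) and 6.89% (5.61 to 8.34). Cells positive for both genes numbered only 94 and 173, and their shares of 11.7% (5.99 to 19.97) and 15.6% (10.5 to 21.9) overlapped those of the double-negative cells.

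The libraries also differed in how many cells fell in each class, and the share was recomputed with the control library's class sizes. With control weights for Gzmc status alone, the NK-depleted mitotic share was 15.5% in place of 18.8%, and 3.22 of the 6.55 points remained, with 0.838 (no thinning) to 5.86 (a mitotic cell defined by 5 of 41 members) over the 11 alternatives. For Ifit3 alone 4.67 points remained, for Havcr2 6.08, for Tcf7 6.69 and for Pdcd1 6.86. With all 5 genes together, in 32 classes, the share was 14.7% and 2.45 points remained. The 11 alternatives gave 1.62 to 4.75 points in place of 2.45, with 2.75 for cells without the shared barcodes. This is arithmetic on class sizes and says nothing of which change came first.

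Most cells called mitotic also carried S phase genes, and the members differed by whether these cells did. An S class was taken as cells with a UMI of at least 10 of 39 S phase genes, none of them a member. It held 15.8% of control and 26.1% of NK-depleted cells, and 58.2% (54.7 to 61.7) and 64.1% (61.5 to 66.6) of mitotic cells were in it. Cells mitotic but outside the S class were 5.14% (4.61 to 5.71) and 6.77% (6.21 to 7.36) of all cells, while those in the S class but not mitotic were 8.64% (7.96 to 9.35) and 14.0% (13.2 to 14.8). Of all cells in either class, the mitotic share was 58.8% (56.1 to 61.4) in the control and 57.4% (55.4 to 59.3) in the NK-depleted library. So the cycling cells were more numerous in the NK-depleted library, 32.9% against 20.9%, while the mitotic part of them did not differ beyond counting error.

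Among mitotic cells, 22 of 41 members were at least 25% higher outside the S class in both libraries, against 8.02% of all genes, and 3 were at least 20% lower in both, against 14% of all genes. Cdc20 had the largest ratio in both libraries. It stood at 0.477 UMIs per 10000 inside and 1.98 outside the S class in the control library (ratio 4.16, 3.33 to 5.22), and at 0.491 and 1.94 in the NK-depleted library (3.94, 3.36 to 4.64). Ccnb1 had ratios of 3.68 and 2.33, Ccnb2 of 2.60 and 2.68, Ube2c of 2.63 and 2.65, Cdkn3 of 2.67 and 2.26 and Cenpf of 2.26 and 2.21. The lower ones were Top2a (0.696 and 0.721), Ttk (0.679 and 0.737) and Bub1 (0.741 and 0.761). Cdk1 (1.06 and 1.14), Ccna2 (0.955 and 1.08) and Mki67 (1.07 and 1.05) were near 1 in both libraries.

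**Figure D5:**
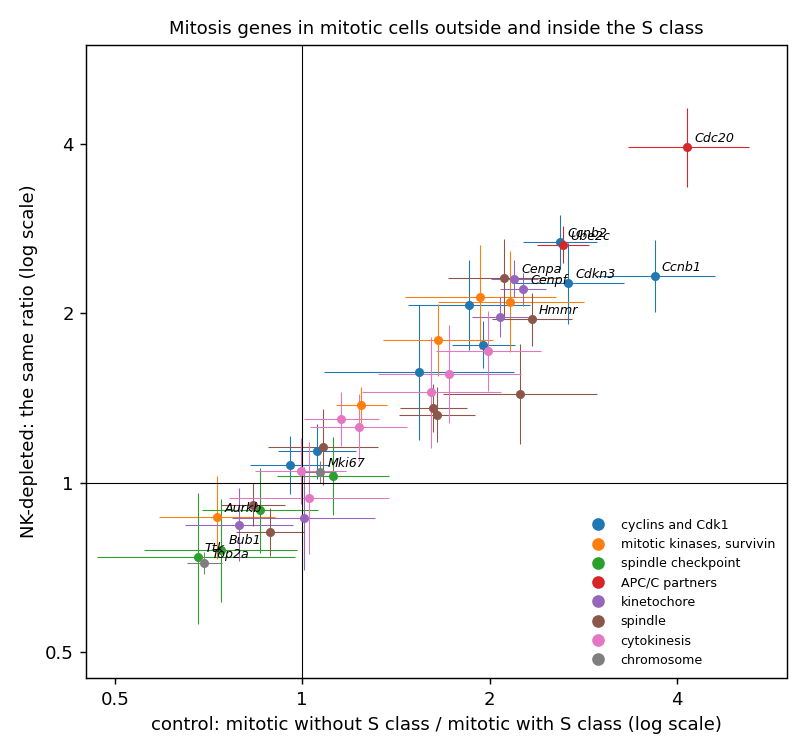
For each of the 41 members, its level in mitotic cells outside the S class divided by that inside it, in the control (horizontal axis) and NK-depleted (vertical axis) library, both on log scales, coloured by role, with exact 95% counting intervals. Cdc20 lies at 4.16 and 3.94 and Top2a at 0.696 and 0.721, and most members lie near the diagonal.

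Other genes of the pathway went with the members. Of 58 further mitosis genes of at least 10 CPM (of 69 listed), 35 were at least 25% higher after NK depletion, against the 6.27% of all genes given above, with a median ratio of 1.30. The largest ratios were those of Kntc1, a checkpoint protein (7.80 and 11.7 CPM, ratio 1.504), and Sgo1, the guardian of centromere cohesion (18.2 and 27.3 CPM, ratio 1.5004). Pttg1, which encodes the separase inhibitor securin, was the only one past the fold downwards, against 11.9% of all genes, at 99.2 and 73.7 CPM (0.743, 0.722 to 0.764), and Ska2 was next lowest (0.994). Like Cenpa, Pttg1 thus stood lower in the library with more mitotic cells.

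Of 18 measured regulators of mitotic genes, 5 were past the fold upwards and 0 downwards, against 6.27% and 11.9% of all genes. Mybl2, the MYB factor of the complex that binds the CHR, stood at 8.86 and 13.3 CPM (ratio 1.503) and E2f1 at 14.1 and 20.9 CPM (1.48). The smallest ratios were those of Rbl2 (0.822) and Lin9 (0.878). Foxm1 stood at 13.3 and 16.4 CPM, a ratio of 1.23. On the S phase list 22 of 38 measured genes were higher and 0 lower, against the same 6.27% and 11.9%, from Fen1 (1.06) and Cdt1 (1.0999) to Cdc6 (1.70) and Ccne2 (1.81), the cyclin E2 of the G1 to S step.

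Across cells, each member's level was correlated with the number of other members detected, with Pearson r from 0.353 (Ttk) to 0.842 (Mki67) in the control and from 0.344 to 0.825 in the NK-depleted library. The 10 genes outside the 41 most like them, by the mean r of their level with the number of members detected over 6381 and 7523 cells, were Hist1h2ap (0.764), Hist1h1b, Stmn1, Hist1h2ae, Prc1, Pclaf, Hist1h3c, Cdca8, Hmgb2 and Knl1 (0.697). Of these, 4 encode replication-dependent histones, and Stmn1, Prc1, Cdca8, Hmgb2 and Knl1 were on the list of further mitosis genes. The cells of a library share its preparation, and these correlations describe the 2 libraries only.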

How the data were processed

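For each library the authors deposited raw UMI counts of genes in barcodes, which are whole numbers. Per the file headers, Cell Ranger 6.1.2 produced them, and the submitters' processing notes also name the mm10 build and Seurat 4.0.6. Groups follow the treatment labels, with 1 library each.

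Counts of gated cells were summed per library and scaled to CPM. Ratios are NK-depleted over control, with exact conditional binomial 95% intervals, and shares have Clopper-Pearson intervals. A gene counted as higher when at least 25% above and lower when at least 20% below the control, with at least 10 CPM in 1 library or, by status, in 1 class. A gene could thus enter a count through the library or class where it was higher. Shares per cell and status were read after thinning each cell to 5000 UMIs without replacement with a fixed seed. No doublet caller was run, and an alternative drops the 8% of cells with most UMIs. The interval and thinning code was checked on simulated counts. A count of 0 is given with the share that 3 counts allow. UMI counts come from transcript 5′ ends, so levels are not compared between genes.

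The 41 members, the lists of other genes and the thresholds were chosen with earlier results of these data known. The text names, per role, the members with the most UMIs and the largest and smallest ratio, the 2 largest and 2 smallest ratios per further list, and the 10 genes most correlated with the members; other members are named as examples. Foxm1 was named after its value was seen. Scart1 of the gamma delta list was not matched. Promoters come from the RefSeq table of GRCm38.p6, with no entry used for 5 members. Python 3.11.15, numpy 2.4.6, scipy 1.17.1 and pandas 2.3.3 were used, and edgeR 4.0.16 in R 4.3.3 for TMM factors only.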

Additional observations from a re-analysis of the deposited data

How the results depend on the processing

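With 1 library per group no replicate could be left out. No paired analysis was possible because the labels give no replicate numbers and each group is 1 library. The count of members at least 25% higher was 27 to 37 under 9 of 11 alternatives, against 31 as reported. It was 14 with a minimum of 50 CPM, which fewer members reach, and 2 at a fold of 1.5. The count of further mitosis genes was 9 and 2 under these same settings, against 35. The ratio of mitotic shares ran from 1.47 to 1.69, and was 1.69 without the 8% of cells with most UMIs, where the cause was not tested. The difference left after weighting by all 5 status genes was 4.75 points with 5 of 41 members defining a mitotic cell and 3.42 points with cells thinned to 8000 UMIs, against 2.45; the cause was not tested. For Pdcd1 the NK-depleted difference of positive and negative cells was -0.0223 points when thinned to 3000 UMIs, and the control ratio of summed members was 0.909, against 1.02, when status needed 2 UMIs, and the cause was not tested. Of 451 alternative values for single members, 275 moved by less than the counting interval, 176 moved by more and 0 changed sign. Dropping the minimum level, a minimum of 50 CPM and a fold of 1.5 cannot change a ratio. The unchanged values under these settings are among the 275 and say nothing of stability. Of 110 alternative differences by status, 63 moved by less than the counting interval and 4 changed sign, all of them for Pdcd1 and 3 of them in the control library. The counting intervals were wide for the classes of 94 and 173 cells positive for both Tcf7 and Havcr2.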
